A study of Rattus norvegicus with 6 samples.

Results

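Pericytes are contractile cells that wrap capillaries and share their basement membrane with the endothelium. This account follows 7 genes widely used to mark them, Mcam, Cspg4, Rgs5, Rgs4, Abcc9, Kcnj8 and Anpep, through rat mesenchymal stem cells (MSC) of 2 skeletal origins. The members are the rows of the deposited count table that carry these symbols, 1 row for each, or 7 of 30498 genes. The groups were rcMSC, wild-type rat MSC from the marrow of cranial bone, and rbMSC, wild-type rat MSC from the marrow of femurs and tibias, with 3 libraries each. The series concerns transplantation of the cranial cells after spinal cord injury, and its stated comparison is rcMSC against rbMSC. No label gives strain, age or passage, or says that the 3 libraries of either origin were grown from separate animals or cultures. A p-value here therefore speaks for the spread among these libraries alone, and that spread may be technical.

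As background, no single gene marks pericytes alone. Mcam (CD146) and Cspg4 (NG2) are surface molecules, Rgs5 and Rgs4 shorten signalling by G protein-coupled receptors, and Abcc9 and Kcnj8 are the subunits SUR2 and Kir6.1 of the vascular ATP-sensitive potassium channel. Anpep (CD13) is a membrane aminopeptidase that myeloid cells and fibroblasts carry too. In marrow, CD146-bearing perivascular cells are a known source of colony-forming stroma.

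Total counts ranged from 21340290 to 26928079 per library. The library rcMSC 3 stood apart from the other 2 of its group. Of 12048 genes with a mean of at least 1 on the log2 CPM scale (a gene's counts over the library's total, scaled by the TMM method of edgeR), 5.31% lay at least 1.5-fold from both other libraries of the group in rcMSC 3, against 0.34% to 0.564% in each of the other 5 libraries. For the markers and the 3 leading genes of each related list, values without it are given where they change a call or differ by over 1.5 times, and for list counts where at least 2 more genes were called in 1 direction. The MSC surface genes Thy1, Nt5e, Eng, Cd44, Itgb1, Alcam and Pdgfra were present in both groups, with a lowest mean of 16.9 CPM for Nt5e in rcMSC. Their levels were not equal, and of the 7, 4 were lower and 3 higher in rcMSC. They ran from Thy1 (log2 change -1.12, edgeR adjusted p = 8.58e-08) to Alcam (log2 change 1.11, edgeR adjusted p = 3.04e-07). Among all tested genes 23.2% were lower and 22.6% higher. Macrophage genes were present too. Of 24 macrophage markers 23 were tested, and 16 were lower and 1 higher in rcMSC, beside 23.2% and 22.6% of all tested genes. Their summed level was 1429 to 1430 CPM in rbMSC and 819 to 867 CPM in rcMSC. The most abundant was Lyz2, with 372 and 266 CPM, and none of the 24 was at 0 in every library. In such bulk RNA, fewer cells of a type and less RNA per cell cannot be told apart.

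Of the 7 markers, Mcam, Cspg4, Rgs5 and Abcc9 were lower in rcMSC, Anpep was higher and Rgs4 did not pass the threshold, an edgeR adjusted p under 0.05 over 14836 genes. Kcnj8 fell below the low-count filter and was not tested. Among all tested genes 23.2% were called lower and 22.6% higher, or 45.8% in either direction. Without rcMSC 3 more genes were called over the whole table, 9070 of 15096 tested, against 6796 of 14836 with it. The list counts without that library, given below, stand beside this larger share. The groups did not overlap in 5 of the 6 tested markers, 4 lower and 1 higher, where 28.8% of all tested genes were lower without overlap, 28.3% higher and 57.1% either way. The 6 tested markers had a median log2 fold change of -2.53, where all tested genes had 0.02. Rgs5 passed the filter through its rbMSC counts alone. Changes of at least 8-fold downward were found in Mcam, Rgs5 and Abcc9, a size reached by 1.11% of tested genes.

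**Figure D1:**
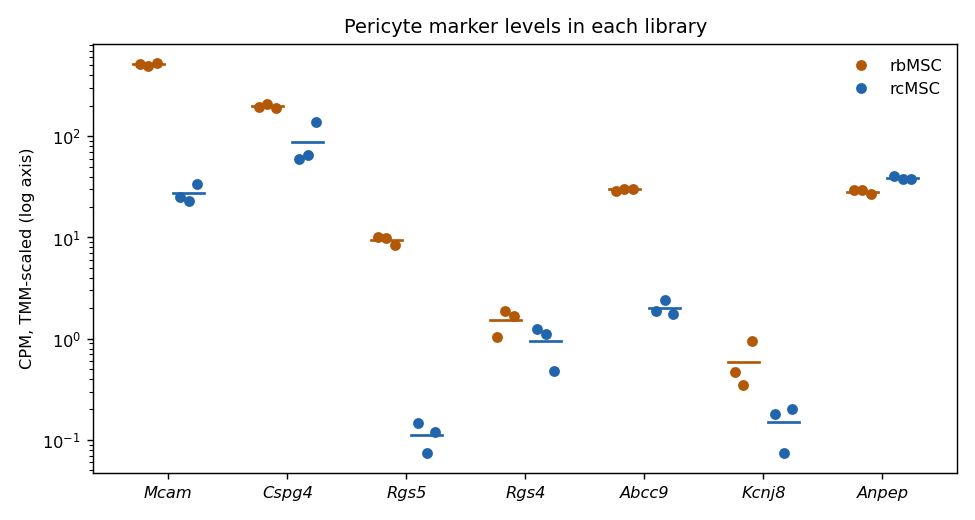
TMM-scaled CPM (log axis) of the 7 pericyte markers in each of the 6 libraries, with a bar at each group mean. The groups do not overlap for Mcam, Cspg4, Rgs5, Abcc9, Kcnj8 and Anpep and overlap for Rgs4, and in Cspg4 the library rcMSC 3 sits at 138 CPM above 60.2 and 65.3.

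Mcam encodes an adhesion molecule of the immunoglobulin superfamily that binds laminins of the vessel wall. The gene (ENSRNOG00000007726) lies on chromosome 8 from 44479376 to 44487571 in the rat build mRatBN7.2, on the plus strand, with 16 exons. Its level was 518, 497 and 523 CPM in rbMSC and 25.2, 22.7 and 33.7 CPM in rcMSC. Every rbMSC library lay far above every rcMSC library, and rcMSC 3 was the highest of its group. On the log2 scale Mcam differed by -4.24 (rcMSC over rbMSC, SE 0.14), with an edgeR adjusted p of 5.42e-08, an 18.9-fold difference and rank 73 of 14836 from the bottom. Mcam is also an endothelial gene, so endothelial markers stand beside it. Pecam1 was at 0.966 ± 0.413 CPM in rbMSC and 0.880 ± 0.348 in rcMSC, and Cdh5 at 1.14 ± 0.378 and 1.30 ± 0.215 (SD, n = 3 each). Of the 15 endothelial markers present, 12 were tested, and 2 were lower (Tie1 and Erg) and 1 higher (Tek). Among all tested genes 23.2% were lower and 22.6% higher. The summed level of the endothelial markers was 61.6 to 66.8 CPM in rbMSC and 50.2, 54.4 and 79.1 CPM in rcMSC 1, 2 and 3. Without rcMSC 3 the sums of rcMSC lay below those of rbMSC, and with it the groups overlapped. Their part in the result was not tested. None of them was at 0 in every library, and Erg was the most abundant, with 27.7 and 19.3 CPM.

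Cspg4 encodes NG2, a large transmembrane chondroitin sulphate proteoglycan that binds type VI collagen and growth factors. The gene (ENSRNOG00000017208) lies on chromosome 8 from 57264962 to 57300010, on the plus strand, with 10 exons. Its level was 196, 208 and 191 CPM in rbMSC and 60.2, 65.3 and 138 CPM in rcMSC. The groups did not overlap, but rcMSC 3 had 2.19 times the mean of rcMSC 1 and rcMSC 2 and lay closer to the rbMSC libraries than they did. On the log2 scale Cspg4 differed by -1.18 (rcMSC over rbMSC, SE 0.34), with an edgeR adjusted p of 0.0386. Without rcMSC 3 it was -1.66 with an edgeR adjusted p of 1.29e-35. That p cannot be set beside those of the main fit. Leaving out rcMSC 3 also took the edgeR adjusted p of Mcam from 5.42e-08 to 2.66e-55. The call for Cspg4 was lost without rbMSC 1, rbMSC 2, rcMSC 1 or rcMSC 2 (adjusted p = 0.0525, 0.051, 0.0689 and 0.101) and without the low-count filter (0.094). Cspg4 also marks glial precursors, and of 14 glial and melanocytic markers Foxd3, Tyr and Dct had 0 counts, while Sox10 had 2 counts in all. Their summed level was 67.4 to 68.9 CPM in rbMSC and 46.8 to 54.6 CPM in rcMSC, and S100b was the most abundant, with 37.3 and 18.1 CPM. Of the 7 that were tested 2 were lower, S100b and Mbp, and 1 was higher, Mlana, beside 23.2% and 22.6% of all tested genes. Mlana was at 0.655, 0.995 and 0.951 CPM in rbMSC and 3.20, 4.49 and 0.840 CPM in rcMSC, so its groups overlapped through rcMSC 3. The part of these markers in the Cspg4 result was not tested.

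Rgs5 and Rgs4 are neighbours on chromosome 13 with no annotated gene in the 51256 bases between them. Both encode small GTPase-activating proteins that switch off Gi and Gq signalling, and Rgs5 is the member most often used to find pericytes in tissue. Rgs5 (ENSRNOG00000002730) lies on the plus strand from 81836304 to 81885518 with 6 exons, and Rgs4 (ENSRNOG00000002773) on the minus strand from 81936775 to 81943068 with 6 exons, so that their 3′ ends face each other. Of the channel pair on chromosome 4, Kcnj8 (ENSRNOG00000013463, 175508912 to 175515603, 3 exons) and Abcc9 (ENSRNOG00000036960, 175532547 to 175655356, 39 exons) are both on the minus strand, 16943 bases apart, again with no annotated gene between. The 250 bases before the annotated start of these 4 genes are shown because each pair shares a neighbourhood while its genes differed in level. The RefSeq promoter table, in build GRCr8, held 6 of the 7 members, and Mcam is named only. The lines read 5′ to 3′ on the gene's strand, and capitals mark a match on either strand to an E-box (CANNTG), a TATA box (TATAAA), a GC box (GGGCGG), the RBPJ core (TGGGAA), an AP-1 site (TGANTCA) or a CArG box. No matches overlap.
Rgs5: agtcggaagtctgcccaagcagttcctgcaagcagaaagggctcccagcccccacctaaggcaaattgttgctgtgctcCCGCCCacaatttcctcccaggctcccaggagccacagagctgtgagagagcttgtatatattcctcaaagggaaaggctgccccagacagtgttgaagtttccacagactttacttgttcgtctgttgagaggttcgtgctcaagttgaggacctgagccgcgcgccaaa
Rgs4: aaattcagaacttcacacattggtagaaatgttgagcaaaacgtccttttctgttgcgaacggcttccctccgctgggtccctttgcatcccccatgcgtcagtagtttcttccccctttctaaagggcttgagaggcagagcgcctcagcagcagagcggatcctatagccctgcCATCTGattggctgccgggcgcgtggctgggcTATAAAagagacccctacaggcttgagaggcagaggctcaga
Abcc9: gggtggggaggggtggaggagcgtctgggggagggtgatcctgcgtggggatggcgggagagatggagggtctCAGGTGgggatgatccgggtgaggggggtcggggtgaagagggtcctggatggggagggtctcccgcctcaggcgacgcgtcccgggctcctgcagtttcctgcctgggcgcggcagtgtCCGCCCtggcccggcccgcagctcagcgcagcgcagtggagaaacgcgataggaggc
Kcnj8: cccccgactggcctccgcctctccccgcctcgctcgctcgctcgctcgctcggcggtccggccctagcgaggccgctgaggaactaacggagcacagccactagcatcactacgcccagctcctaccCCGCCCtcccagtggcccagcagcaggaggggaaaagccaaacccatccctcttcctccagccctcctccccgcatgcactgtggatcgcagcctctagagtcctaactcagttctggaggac
These windows are chr13:84380827-84381076 (plus) for Rgs5, chr13:84475885-84476134 (minus) for Rgs4, chr4:177386349-177386598 (minus) for Abcc9 and chr4:177246549-177246798 (minus) for Kcnj8, all in GRCr8.

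The windows of Rgs5, Abcc9 and Kcnj8 each held 1 GC box, and that of Rgs4 held none. Rgs4 alone of the 4 had a TATA box, at position -42 from the start. E-boxes were found at -74 in Rgs4 and -177 in Abcc9. Of 33469 such windows in the table, 30.5% held a GC box, 12.9% a TATA box and 65.5% an E-box. The RBPJ core (22.1% of windows), the AP-1 site (6.34%) and the CArG box (1.5%) were not among the letters of these 4 windows. GC content was 54.4% in Rgs5 and in Rgs4, 71.2% in Abcc9 and 66.8% in Kcnj8, beside a median of 51.2% over all windows. A match is a description of letters, not of binding.

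Rgs5 was the marker with the largest change. Its level was 10.1, 9.95 and 8.48 CPM in rbMSC and 0.146, 0.0736 and 0.12 CPM in rcMSC. The rcMSC libraries held 4, 2 and 3 reads of it, against 215, 230 and 214. On the log2 scale Rgs5 differed by -6.33 (rcMSC over rbMSC, SE 0.25), with an edgeR adjusted p of 2.63e-08, rank 25 of 14836 from the bottom. Pooled over each group, the counts gave 83.6 times more in rbMSC, with an exact binomial 95% interval of 43.8 to 184 that covers counting error only. Rgs4 was at 1.03, 1.86 and 1.66 CPM in rbMSC and 1.24, 1.10 and 0.48 CPM in rcMSC. Its groups overlapped, with rcMSC 3 the lowest of all 6 libraries. On the log2 scale Rgs4 differed by -0.68 (rcMSC over rbMSC, SE 0.37), with an edgeR adjusted p of 0.157, and by -0.38 without rcMSC 3 (0.303). Per kilobase of exon, Rgs5 stood at 10.3 to 19.8 times the level of Rgs4 in the rbMSC libraries and at 0.135 to 0.506 times in the rcMSC libraries. The rcMSC ratios rest on 4, 2 and 3 reads of Rgs5 and 34, 30 and 12 reads of Rgs4. By these values the order of the neighbours was opposite in the 2 groups. No interval was computed for the ratios, and the highest, 0.506 in rcMSC 3, comes from 3 and 12 reads.

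Abcc9 followed Mcam closely in the size of its change. Its level was 29.0, 30.2 and 30.3 CPM in rbMSC and 1.89, 2.39 and 1.76 CPM in rcMSC. The libraries of each group lay near each other and the groups did not overlap. On the log2 scale Abcc9 differed by -3.88 (rcMSC over rbMSC, SE 0.12), with an edgeR adjusted p of 5.17e-09, a 14.7-fold difference. Kcnj8, the pore subunit that pairs with it, was near the limit of detection, at 0.468, 0.346 and 0.951 CPM in rbMSC and 0.182, 0.0736 and 0.2 CPM in rcMSC. These are 10, 8 and 24 reads against 5, 2 and 5, and the groups did not overlap. The pooled ratio was 4.0 in favour of rbMSC (exact binomial 95% interval 2.07 to 8.34, counting error only). Per kilobase, Abcc9 stood at 11.7 to 32.0 times the level of Kcnj8 in rbMSC and 3.23 to 11.9 times in rcMSC. The sister subunits Abcc8 and Kcnj11, which form the channel of insulin-secreting cells, had 0 counts in all 6 libraries.

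Anpep went the other way. The gene (ENSRNOG00000014610) lies on chromosome 1 from 133767332 to 133785789, on the minus strand, with 20 exons. Its level was 29.2, 29.2 and 26.9 CPM in rbMSC and 40.5, 37.8 and 38.1 CPM in rcMSC. The groups did not overlap, and both were tight. On the log2 scale Anpep differed by 0.45 (rcMSC over rbMSC, SE 0.07), with an edgeR adjusted p of 0.000627, a 1.37-fold difference. Anpep is also a myeloid gene, and the summed macrophage markers were 1429 to 1430 CPM in rbMSC and 819 to 867 CPM in rcMSC. Their part in the Anpep result was not tested.

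**Figure D2:**
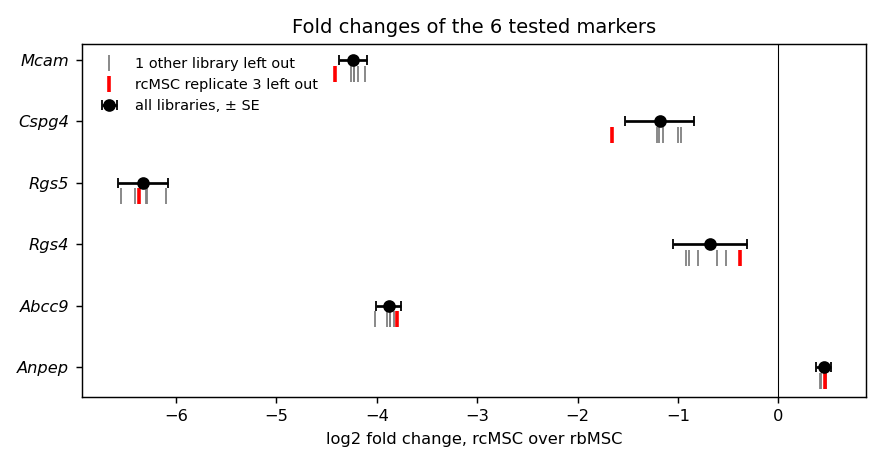
Log2 fold change of rcMSC over rbMSC for the 6 tested markers, with its SE, and the values with each library left out below it. Rgs5, Mcam and Abcc9 lie between -6.33 and -3.88, Anpep at 0.45, and Cspg4 moves from -1.18 to -1.66 without rcMSC 3.

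Levels can be compared between genes only per length, here CPM per kilobase of exon in the deposited table. In rbMSC the order was Mcam (176 ± 4.78), Cspg4 (24.6 ± 1.05), Anpep (8.44 ± 0.395), Rgs5 (6.51 ± 0.606), Abcc9 (4.54 ± 0.108), Rgs4 (0.514 ± 0.147) and Kcnj8 (0.244 ± 0.133, SD, n = 3 each). Of these neighbours in the order, Rgs4 and Kcnj8 alone overlapped between libraries. In rcMSC the order was Anpep (11.5 ± 0.430), Cspg4 (10.9 ± 5.35), Mcam (9.31 ± 1.97), Rgs4 (0.319 ± 0.137), Abcc9 (0.307 ± 0.0509), Rgs5 (0.0776 ± 0.0250) and Kcnj8 (0.0631 ± 0.0284). There Anpep and Cspg4 overlapped, as did Cspg4 and Mcam, Rgs4 and Abcc9, and Rgs5 and Kcnj8. Mcam therefore led the markers in rbMSC by a wide margin and was level with Cspg4 in rcMSC, at 0.677 to 1.16 times Cspg4 against 6.61 to 7.56 times in rbMSC.

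The 3 nearest annotated genes on each side of a marker give context. Here and below, of 2 values in parentheses after a gene, the first is its log2 fold change and the second its edgeR adjusted p, and a lone one after a printed change is that p. Beside Mcam, 5 of 6 neighbours were tested and 2 were lower, the ubiquitin ligase gene Cbl (log2 change -0.74, edgeR adjusted p = 3.74e-06) and C1qtnf5 (-0.23, 0.0059). Around Abcc9, none of the 3 tested neighbours (Ldhb, Cmas and St8sia1) passed, and St8sia1 had -1.32 (edgeR adjusted p = 0.0552). Around Anpep, neither Ap3s2 (0.17) nor Arpin (0.21) passed (edgeR adjusted p = 0.418 and 0.0897). Next to the Rgs pair the mitotic gene Nuf2 was lower, at -1.19 (edgeR adjusted p = 7.99e-05), and Hsd17b7 on the far side was higher, at 0.39 (0.0412).

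Around Cspg4, 2 neighbours, Odf3l1 and Lingo1, had lower log2 values than Cspg4 itself. Odf3l1 (ENSRNOG00000027109) runs from 57248746 to 57281004 on the minus strand and overlaps the first part of Cspg4, with 0 exon bases in common. Its level went from 5.82 CPM in rbMSC to 0.24 CPM in rcMSC, or -4.58 on the log2 scale (SE 0.24), with an edgeR adjusted p of 2.25e-07. Lingo1, beyond it, had -2.15 (edgeR adjusted p = 0.000217) and Snx33, on the other side, had -0.36 (0.00256), while AC135389.1 had 1.23 (0.0204). Whether the counting used strand is not stated. Without strand, an intronic read of 1 of these genes that fell on an exon of the other would count for that other gene.

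**Figure D3:**
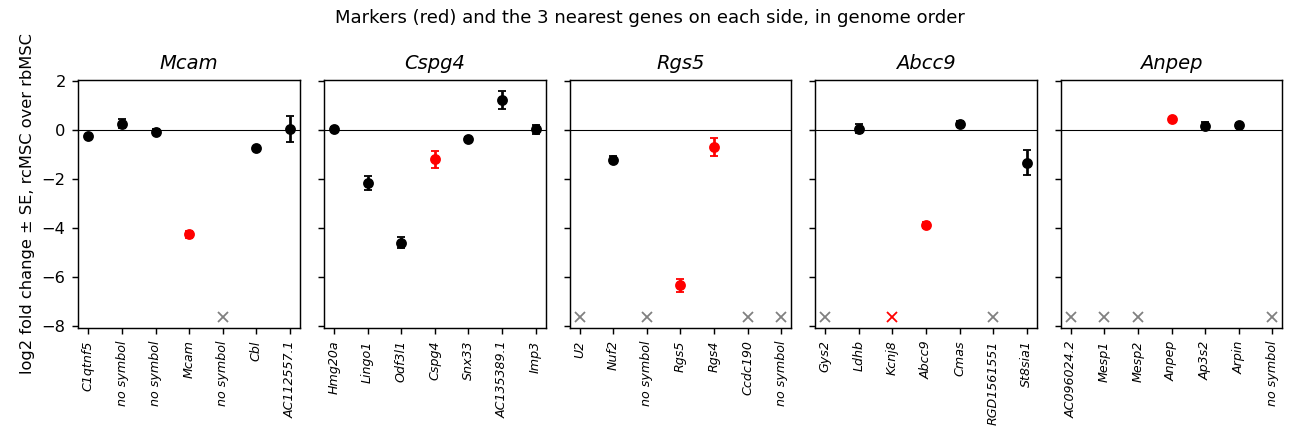
Log2 fold change (± SE) of each marker (red) and the 3 nearest genes on each side in genome order, with crosses at the lower edge, which mark no value, for genes that were not tested. Mcam (-4.24), Rgs5 (-6.33) and Abcc9 (-3.88) lie below every tested neighbour of theirs, and Cspg4 (-1.18) lies above Odf3l1 (-4.58) and Lingo1 (-2.15).

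The RGS genes, the family of Rgs5 and Rgs4, were mostly lower in rcMSC. With those 2 members, 21 numbered RGS genes were in the table, 18 were tested, 12 were lower and 0 were higher. Rgs16, an immediate response gene that acts on Gi and Gq, fell from 104 ± 3.44 to 9.47 ± 4.26 CPM (log2 change -3.47, edgeR adjusted p = 0.000104). Rgs17 fell from 11.2 ± 0.970 to 1.12 ± 0.184 CPM (-3.32, 1.71e-07). Rgs1, best known from lymphocytes and macrophages, fell from 36.9 ± 4.22 to 4.38 ± 2.61 CPM (-3.09, 0.000522), or by -3.68 on the log2 scale without rcMSC 3, beside the lower macrophage sum given above, and its part was not tested. Rgs2, a regulator of vascular tone, went from 59.3 ± 2.18 to 11.5 ± 1.19 CPM (-2.36, 1.64e-08). Those that did not pass were Rgs4, Rgs6, Rgs7, Rgs11, Rgs18 and Rgs19, with Rgs19 at 0.02 (edgeR adjusted p = 0.86). Outside the members, 11 of 16 tested RGS genes were lower (68.8%, against 23.2% of all genes) with a median log2 fold change of -0.95, and 9 to 11 were lower without 1 library.

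**Figure D4:**
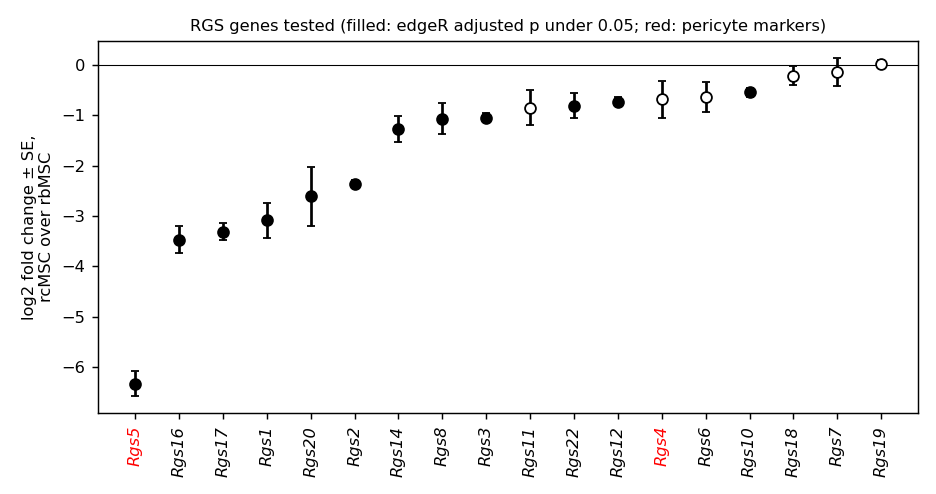
Log2 fold change (± SE) of rcMSC over rbMSC for the 18 tested RGS genes, filled where the edgeR adjusted p is under 0.05. Rgs5 is lowest at -6.33, Rgs4 at -0.68 is among the 6 open points, and Rgs19 at 0.02 is the highest.

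Receptors and G proteins on which such regulators act moved both ways. Of 33 rows tested (Gnas has 2), 13 were lower (39.4%) and 9 higher (27.3%), with a median of -0.21. Without rcMSC 3, 19 were lower and 11 higher, beside the larger share of calls over all genes in that setting. The prostaglandin E2 receptor gene Ptger3 fell from 36.8 ± 1.09 to 0.816 ± 0.0971 CPM (log2 change -5.48, edgeR adjusted p = 4.41e-10). The nucleotide receptor gene P2ry6 was lower at -2.36 (1.07e-06), and the protease-activated receptor gene F2rl1 rose from 0.675 ± 0.0988 to 3.06 ± 0.820 CPM (2.18, 0.000138). Of the G protein subunits, Gnaq was lower at -0.51 (2.90e-05), as were Gnai1, Gnai2, Gna12 and Gna13. Gnao1 was higher at 0.40 (0.00801), as were the 2 rows of Gnas. Gnai3 had 0.17 (0.154) and Gna11 had -0.19 (0.0548).

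Around the channel pair, 6 of 13 tested ion channel genes were lower (46.2%) and 3 higher (23.1%), or 1 higher without rbMSC 1, with a median of -0.23. Kcnmb1, the smooth muscle subunit of the large-conductance calcium-activated potassium channel, fell from 7.19 ± 0.927 to 0.251 ± 0.244 CPM (log2 change -4.81, edgeR adjusted p = 1.31e-05), and had -5.91 without rcMSC 2. Itpr1, the calcium release channel of the endoplasmic reticulum, fell from 934 ± 11.6 to 335 ± 24.7 CPM (-1.48, 5.55e-08). The chloride channel gene Ano1 had -1.40 (0.00656). The 3 higher genes were Kcnj2 (0.94, 8.26e-05), Kcnq5 (0.42, 0.015) and Cacna2d1 (0.20, 0.0195). Kcnma1, of the same list, did not pass (0.08, 0.887), at 0.682 CPM in rbMSC and 0.718 CPM in rcMSC. Kcna5 had 1 count in rbMSC and 0 in rcMSC.

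Among the partners of Mcam and other adhesion genes, more were higher than lower, 9 against 6 of 19 tested (47.4% and 31.6%), with a median of 0.14. Without rcMSC 3, 10 were higher and 8 lower. The laminin chain genes of this list split. Lama5 fell from 49.7 ± 1.10 to 1.34 ± 0.139 CPM (log2 change -5.22, edgeR adjusted p = 2.38e-10), while Lama2 rose from 13.3 ± 0.403 to 148 ± 19.9 CPM (3.48, 3.92e-09). Lama4, the vascular laminin chain to which Mcam binds, was at 514 ± 13.8 and 426 ± 53.8 CPM, a log2 fold change of -0.27 (0.0229). Vcam1 was lower at -1.81 (6.26e-06).

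For Cspg4, 8 of 22 partners and chondroitin sulphate genes were lower (36.4%) and 4 higher (18.2%), with a median of -0.17. Without rcMSC 3, 12 were lower and 4 higher. The enzyme gene Csgalnact1, which starts the chondroitin chain on its linker, fell from 218 ± 6.84 to 44.1 ± 3.65 CPM (log2 change -2.30, edgeR adjusted p = 4.32e-09). The integrin gene Itga3 was lower at -1.52 (2.18e-06), and Grip1, a scaffold that binds the NG2 tail, rose from 2.47 ± 0.738 to 9.31 ± 0.118 CPM (1.92, 2.21e-05). For Anpep, the membrane peptidases moved both ways, with 5 lower and 5 higher of 15 (33.3% each) and a median of -0.03, and with 7 lower and 6 higher without rcMSC 3. Enpep, an angiotensin-cleaving aminopeptidase that pericytes also carry, fell from 49.5 ± 1.23 to 11.4 ± 2.34 CPM (-2.12, 5.44e-07). Dpp4 (CD26) rose from 0.96 ± 0.275 to 12.1 ± 1.13 CPM (3.63, 2.41e-07), and Fap was higher at 1.36 (1.87e-07).

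Other genes of mural cells, the pericytes and smooth muscle of vessel walls, were mostly lower. Of 17 tested, 11 were lower (64.7%) and 1 higher (5.88%), with a median of -1.29. Notch3, the receptor that mural cells use to respond to endothelial ligands, fell from 97.7 ± 1.53 to 5.41 ± 1.13 CPM (log2 change -4.17, edgeR adjusted p = 4.32e-09). Tinagl1 was lower at -4.65 (9.27e-07), or -5.26 without rcMSC 3, and Gucy1b1, a subunit of the nitric oxide receptor, at -2.94 (6.92e-08). Art3 was the 1 that rose, with 2 counts in rbMSC and 51 in rcMSC. Pdgfrb, the receptor by which pericytes are recruited, was lower at -0.92 (6.18e-07) but remained abundant, at 586 ± 25.5 CPM in rcMSC. Vtn and Atp13a5, markers of brain pericytes, had 0 counts in all libraries, and Cd248 had 0.14 (0.0661). Without rcMSC 3, 14 of these genes were lower and 4 higher, beside the larger share of calls over all genes in that setting.

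Of 20 transcription factors of mural cells, 12 were lower (60%) and 5 higher (25%), with a median of -0.52. Without rcMSC 3, 14 were lower and 5 higher. The Notch target Hey2 fell from 11.5 ± 1.32 to 0.643 ± 0.116 CPM (log2 change -4.16, edgeR adjusted p = 6.83e-08). Foxc2 was lower at -3.06 (3.37e-06) and Myocd, the master coactivator of smooth muscle genes, at -2.62 (2.18e-05). Those that rose were Foxf2, Ebf2, Meox2, Klf4 and Rbpj, and 2 factors rose without rbMSC 1, without rbMSC 3 or without rcMSC 1. Of 18 smooth muscle genes, 13 were lower (72.2%) and 2 higher (11.1%), with a median of -0.94, and 1 was higher without rbMSC 1, rbMSC 2, rcMSC 1 or rcMSC 2, each left out in turn. Mylk was lower at -5.32 (6.51e-11), Hspb7 at -4.84 (6.54e-07) and Myh11, the smooth muscle myosin, fell from 348 ± 19.3 to 15.5 ± 1.10 CPM (-4.49, 1.14e-10). Acta2 (-0.93, 6.75e-07) and Tagln (-0.89, 2.36e-06) fell less and remained abundant, at 1558 and 677 CPM in rcMSC. Smtn (0.15, 0.189) and Tpm1 (-0.10, 0.181) did not pass, and Itga8 (0.81, 0.000978) and Synpo2 (0.63, 0.0209) were the higher ones. Of 20 genes of recruitment signalling, with receptors as well as ligands, 13 were lower (65%) and 3 higher (15%), with a median of -0.95. The 3 higher ones, Tgfbr2, Tek and Notch2, encode receptors. Receptor genes were also among the lower ones, Pdgfra (-0.65, 4.31e-06), Tgfbr1 (-0.95, 4.27e-07), Acvrl1 (-1.09, 0.000199) and Notch1. Notch1 was lower at -1.76 (4.17e-06), Tgfb2 at -1.58 (1.60e-05) and Hbegf at -1.52 (9.85e-07), while Pdgfb, the endothelial ligand of Pdgfrb, had -0.20 (0.597).

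**Figure D5:**
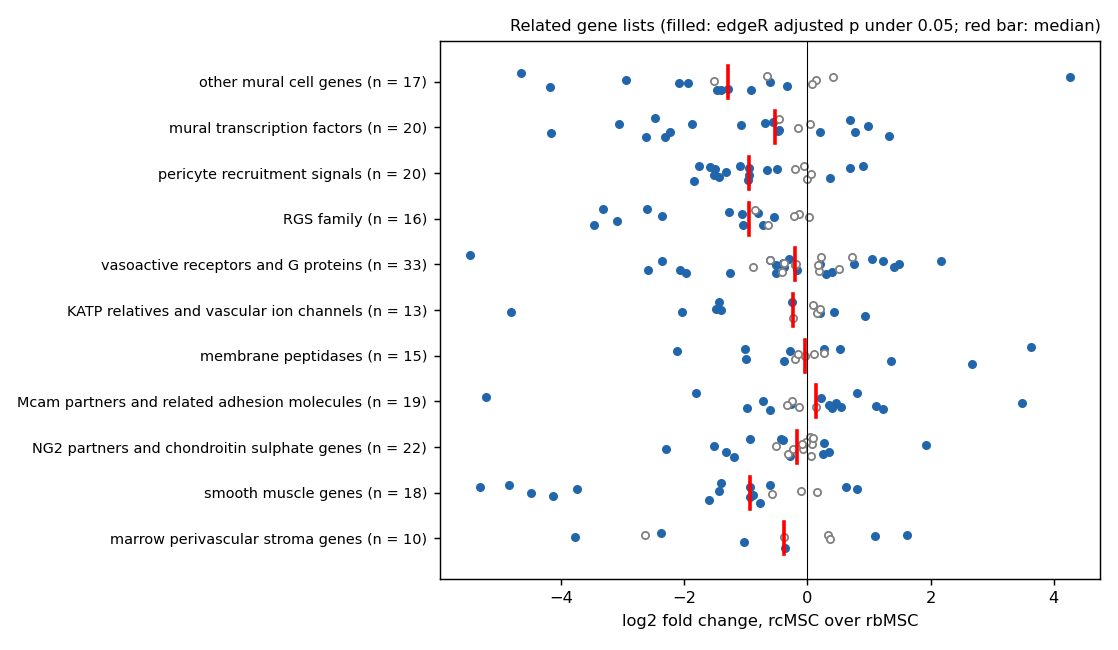
Log2 fold change of each tested gene in the 11 related lists, filled where the edgeR adjusted p is under 0.05, with a red bar at the list median. Medians run from -1.29 for the other mural cell genes to 0.14 for the partners of Mcam and other adhesion genes. All tested genes had 0.02.

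The genes whose profile over the 6 libraries lay nearest to each marker were found by Euclidean distance between centred log2 CPM values. Nearest to Mcam was Col18a1, a collagen of vascular basement membranes, at a distance of 0.283 (483 CPM in rbMSC and 27.3 in rcMSC), followed by Odf3l1, the gene that overlaps Cspg4, at 0.348. Cspg4 was nearest to Ccbe1 (0.173) and Phf24 (0.196), and Rgs5 to Hoxa5 (0.404) and Hoxa3 (0.472). Abcc9 was nearest to Fam13a (0.344) and to the chemokine gene Cxcl12 (0.449), Rgs4 to Vipr2 (0.416) and Hist1h2an (0.438), and Anpep to Rev3l (0.0579) and Sec16b (0.0906). Among the markers themselves the closest pair was Mcam and Abcc9, at 0.866, and the farthest Rgs5 and Anpep, at 7.47. With 2 groups of 3 libraries, a short distance reflects mainly a like difference between the groups.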

How the data were processed

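RNA sequencing of 6 libraries was used. Trimming was by Trim Galore 0.6.7 and Trimmomatic 0.39, alignment to mRatBN7.2 by STAR 2.7.9a and counting per gene by featureCounts 2.0.1, per the labels' protocols. The deposited values are the authors' raw counts, not normalized. The deposited exon length of each gene served for levels per kilobase. Neither the strand setting nor the annotation release is stated.

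The fit was edgeR 4.0.16 (R 4.3.3) with TMM scaling, filterByExpr, robust quasi-likelihood F tests and Benjamini-Hochberg adjustment over 14836 genes, and every adjusted p printed is from it unless another tool is named. SE was computed as the size of the log2 difference over the root of F. CPM means carry SD, n = 3. Libraries of a group differed by more than counting noise. Chi-square per degree of freedom was 2.69 to 3.16 for pairs without rcMSC 3. It was 42.8 and 42.0 for rcMSC 3 with rcMSC 1 and with rcMSC 2. The code was tested on simulated counts.

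Members and lists were chosen with earlier results of these data known. All members are named. Each related list names its 3 largest changes past the threshold with mean log2 CPM not under 0, and each tested member its 2 nearest profiles. Other genes were named after their values were seen. List genes low in 1 group pass the filter through the other. Of the 230 genes in 11 lists, symbols missing from the table were not analysed here. In a list of lymphoid and erythroid markers, 8 were in the table and 0 passed the filter. Alternatives were other scalings, filters, DESeq2 1.42.0, limma voom (3.58.1), a block for the replicate number, and leaving out every library in turn.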

Additional observations from a re-analysis of the deposited data

How the results depend on the processing

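Directions of the 6 tested markers held under all 15 alternatives. Cspg4 did not pass without the low-count filter (log2 fold change -1.18, edgeR adjusted p = 0.094), and ranged from -1.66 to -0.97 with 1 library left out. Kcnj8, untested in the main fit at a log2 ratio of -2.00, passed without the low-count filter (-1.94, edgeR adjusted p = 0.0162) and with DESeq2 (-1.97, DESeq2 adjusted p = 0.0351), and ranged from -2.22 to -1.62 where the filter kept it with 1 library left out. Markers called lower numbered 3 to 5 with 1 library left out. Genes called in either direction numbered 6796, and 5336 to 9070 with 1 library left out, the 9070 being without rcMSC 3. All 33 list genes named by the rule kept call and direction in 495 of 495 values, while Kcnmb1 (-5.91 to -4.29), Tinagl1 (-5.26 to -4.38) and Rgs1 (-3.68 to -2.85) moved by over 1.5 times with 1 library left out. Same-numbered libraries correlated at -0.0275, 0.018 and -0.0518 in their deviations from the group means, so the labels' numbers were not treated as pairs. With the replicate number as a block, Mcam was at -4.25, Cspg4 at -1.28, Rgs5 at -6.33, Rgs4 at -0.71, Abcc9 at -3.89 and Anpep at 0.45, and 6297 genes were called. With the replicate block, as with DESeq2, 3 mural transcription factors were higher in place of 5, and no other mural gene was higher among those with at least 1 CPM in 3 libraries. Counting error limits Kcnj8 and, in rcMSC, Rgs5.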

Other observations

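The marrow stroma around vessels, which supports blood stem cells and overlaps with CD146-bearing cells, was covered by a list of 10 tested genes. Of these, 4 were lower (40%) and 2 higher (20%) in rcMSC, where 23.2% and 22.6% of all tested genes were. The median log2 fold change of the list was -0.38, and 3 to 5 of its genes were lower with 1 library left out. Cxcl12, the chemokine that retains blood stem cells, was at 714 ± 13.6 CPM in rbMSC and 51.9 ± 3.29 in rcMSC (log2 change -3.78, edgeR adjusted p = 1.18e-10). Lpl was lower at -2.37 (3.26e-09) and the transcription factor gene Ebf3 rose from 7.42 ± 0.398 to 22.7 ± 4.47 CPM (1.61, 1.09e-05). Lepr, the defining receptor of this stroma in adult marrow, had 0.33 (0.156), at 3.10 ± 0.539 and 3.90 ± 0.189 CPM. Spp1 did not pass (-2.63, 0.103), with 645 ± 11 CPM against 104 ± 123 CPM, of which rcMSC 3 held 246 and the other 2 libraries 33.5 and 32.4.

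In the gene ontology column of the deposited table, angiogenesis was the process term held by the most markers, Mcam, Cspg4 and Anpep, and 162 tested genes carried it. Of these 3 genes Mcam was 18.9-fold and Cspg4 2.27-fold lower in rcMSC, the call for Cspg4 being lost under several alternatives, and Anpep was 1.37-fold higher.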
